A study of Mus musculus with 16 samples.

Results

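The coagulation and fibrinolysis genes of macrophages described here are 10 genes that carry the clotting cascade and its control at the cell surface, measured in cells sorted as tumour-associated macrophages from the mouse peritoneal cavity. They are F3, F7, F10, F5, F13a1, Thbd, Pros1, Tfpi, Plau and Plaur, 10 of the 18194 genes on the array, and they were chosen by name, as every probe set annotated to exactly 1 of these symbols. This gave 17 probe sets of the 34958 with a single gene symbol. F10 had 3, F5 2, Tfpi 4 and Plau 2, and the other members had 1 each. For each gene the probe set with the highest mean over the 16 arrays is given unless another is named. The names were chosen with the difference between the sorted subsets already known, so that difference is described below without a test, and the difference between genotypes is tested.

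Coagulation starts when tissue factor binds factor VII and activates factor X, which with factor V forms the complex that makes thrombin, and factor XIII then crosslinks the fibrin clot. Thrombomodulin, protein S and tissue factor pathway inhibitor restrain this cascade, and the urokinase plasminogen activator with its receptor turns plasminogen into plasmin, which dissolves fibrin. The liver makes most circulating factors, but resident macrophages of the mouse peritoneum are known to express several of them, factor V among them, and to form clots in the cavity.

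Female C57BL/6N mice, either control or RbpjiΔEC, received 1 mg tamoxifen by mouth once at 8 to 12 weeks of age, and after 3 more weeks they were given ID8-luc, an ovarian cancer line of mice, into the peritoneal cavity, where it was left for 4 weeks. In RbpjiΔEC mice the deletion concerns Rbpj, the DNA-binding partner of Notch, in endothelial cells; the labels do not name the promoter that drives recombination, nor the alleles of the control mice. Cells from the lavage were sorted as macrophages, defined as CD45+ CD11b+ F4/80+ and split by CCR2, a chemokine receptor of monocytes. This gave 4 groups of 4 arrays: CCR2+ Control, CCR2+ RbpjiΔEC, CCR2- Control and CCR2- RbpjiΔEC. The labels do not say that the 4 arrays of a group come from separate animals, so the p-values below measure the spread between these arrays, which may be technical. All levels are log2 intensities after quantile normalization over the 16 arrays, each difference is in log2 units, and errors are the SD over 4 arrays for a level and the limma standard error (SE) for a difference.

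The labels CCR2+ and CCR2- are used below as deposited, because the transcripts did not follow them. Ccr2 read 7.99 ± 1.05 (SD, n = 4) in the CCR2+ Control arrays and 9.99 ± 1.08 in the CCR2- Control arrays (difference −1.99, SE 0.635, limma adjusted p = 0.0184), and the difference in RbpjiΔEC mice was −1.26 (limma adjusted p = 0.135). All 12 markers of large peritoneal macrophages, the resident population, were called higher in the CCR2+ arrays in both genotypes. Their summed intensity was 88250 to 98148 in the CCR2+ Control, 92136 to 94498 in the CCR2+ RbpjiΔEC, 4845 to 5422 in the CCR2- Control and 4477 to 5192 in the CCR2- RbpjiΔEC arrays, and none of the 12 was at the floor. All 10 B cell markers were called lower, with sums of 3209 to 3625 over the 8 CCR2+ arrays and 61667 to 65398 over the 8 CCR2- arrays, and Fcrla was at the floor in the CCR2+ groups. Ms4a1, which encodes CD20, read 7.09 ± 0.55 (SD, n = 4) with the CCR2+ label and 13.55 ± 0.04 (n = 4) with the CCR2- label in control mice. The CCR2- arrays, though sorted as macrophages, thus had high B cell markers and low macrophage markers, and they are called CCR2- arrays and not macrophages below. Adgre1, which encodes the sorting antigen F4/80, differed by 4.04 in control and 4.16 in RbpjiΔEC mice, and Itgam, which encodes CD11b, by 3.26 and 3.41. The mean deposited intensity was 821.5 to 827.3 with the CCR2+ label and 481 to 762 with the CCR2- label, so label and deposited scale cannot be told apart. In sorted cell pools, fewer cells of a type and less RNA per cell cannot be told apart either. The array floor is taken from 3 probe sets for the bacterial trp gene, which read 6.03 to 6.72 over the 16 arrays; differences against levels near it are understated, and a fold is given below only where all CCR2- arrays were above it.

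All 10 genes were on average higher with the CCR2+ label than with the CCR2- label, in control mice as in RbpjiΔEC mice. The differences ran from 0.84 (F3) to 6.04 (F5) in control mice, with a median of 3.28, and from 0.61 (F3) to 6.10 (F5) in RbpjiΔEC mice, with a median of 3.29. The median over all 18194 genes was −0.03 in both. In control mice the arrays of the labels did not overlap for 9 of 10 members, all but F13a1, where 17.9% of all genes were higher in every CCR2+ array. In RbpjiΔEC mice they did not overlap for 8 of 10, all but F3 and Plau, against 17.4% of all genes. These counts rest on the comparison by which the members were known and support nothing further. The direction was the same for all 17 probe sets, at 0.33 to 6.04 in control and 0.26 to 6.10 in RbpjiΔEC mice.

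**Figure D1:**
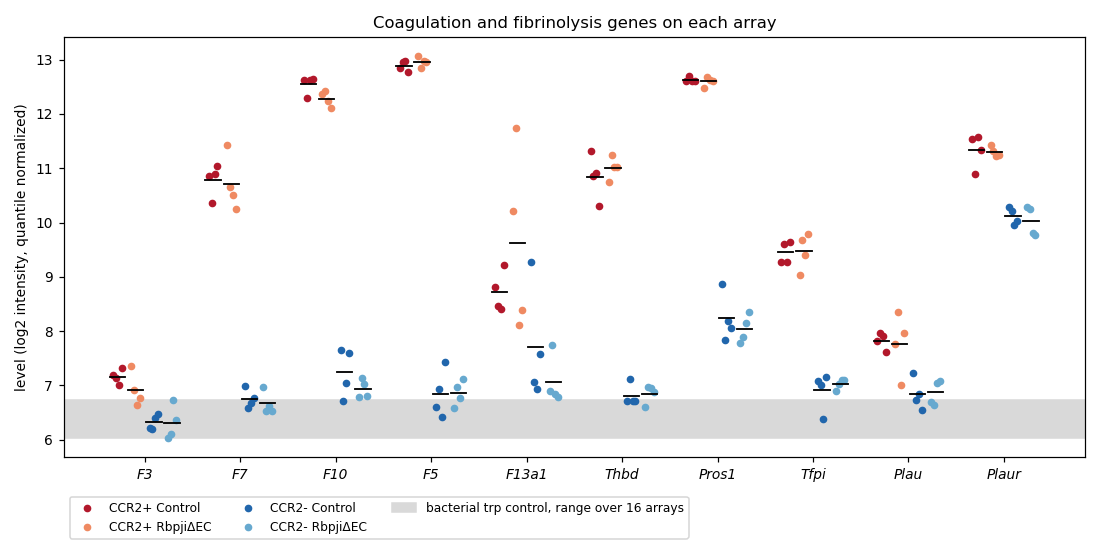
Level of each of the 10 genes (log2 intensity, quantile normalized) on each of the 16 arrays, 1 point per array and a line at each group mean; the grey band is the range of the bacterial trp control. F5, F10, Pros1, Thbd, F7, Tfpi and Plaur form separate clouds by label, while F13a1 spreads from 6.79 to 11.74.

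Stretches upstream of 4 of these genes are printed to show what lies before the genes with the largest differences, F5, F10 and Pros1, and before F3, the one with the smallest. Each is the 250 bases before the start that RefSeq gives on GRCm38.p6, on the plus strand, 5′ to 3′, and capitals mark matches to the motifs named after them. F5 lies at chr1:164151585-164151834, F10 at chr8:13037058-13037307, Pros1 at chr16:62854057-62854306 and F3 at chr3:121723287-121723536.
F5: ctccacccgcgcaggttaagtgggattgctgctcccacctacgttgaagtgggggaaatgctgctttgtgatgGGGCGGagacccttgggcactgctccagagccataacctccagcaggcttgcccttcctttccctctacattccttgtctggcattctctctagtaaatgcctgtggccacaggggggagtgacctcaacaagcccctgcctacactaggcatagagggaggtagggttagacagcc
F10: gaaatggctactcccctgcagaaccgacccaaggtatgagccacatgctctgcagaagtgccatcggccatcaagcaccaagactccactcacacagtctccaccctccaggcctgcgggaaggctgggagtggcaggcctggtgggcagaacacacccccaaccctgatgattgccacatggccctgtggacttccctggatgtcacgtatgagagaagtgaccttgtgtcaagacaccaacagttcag
Pros1: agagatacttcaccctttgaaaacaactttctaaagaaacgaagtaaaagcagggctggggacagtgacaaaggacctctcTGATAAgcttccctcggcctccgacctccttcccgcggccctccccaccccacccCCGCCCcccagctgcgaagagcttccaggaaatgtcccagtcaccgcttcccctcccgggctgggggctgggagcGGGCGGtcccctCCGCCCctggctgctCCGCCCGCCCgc
F3: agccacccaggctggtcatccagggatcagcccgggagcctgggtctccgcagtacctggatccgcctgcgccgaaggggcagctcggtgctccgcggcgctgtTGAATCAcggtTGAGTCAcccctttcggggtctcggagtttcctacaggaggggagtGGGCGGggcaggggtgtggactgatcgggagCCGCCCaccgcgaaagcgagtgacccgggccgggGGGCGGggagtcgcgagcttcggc
The motifs, searched on both strands, were AGATAA and TGATAA for GATA factors, GAGGAA for PU.1, TGANTCA for AP-1, GGGCGG for Sp1 and GTGGGAA for RBPJ. Matches of Sp1 may overlap each other, as at the end of the Pros1 window. Windows were found for 8 of the 10 members, 10 windows in all, since F13a1 and Tfpi have 2 starts. A GATA match stood in 2 of the 10 windows, Pros1 and 1 of Tfpi, and in 16.6% of 32851 windows of the same length. PU.1 matched in 4 of 10 against 23.3% of all windows, AP-1 in 2 (F3 and Plaur) against 6.75%, and Sp1 in 6 against 32.7%. The F10 window held none of the motifs, and no window held the RBPJ letters, which 5.42% of all windows hold. A match is a description of these letters and not a bound site.

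F3 encodes tissue factor, the membrane receptor that starts coagulation. It read 7.19, 7.13, 7.02 and 7.32 in the CCR2+ Control arrays, 7.36, 6.92, 6.65 and 6.76 in the CCR2+ RbpjiΔEC arrays, 6.22, 6.19, 6.41 and 6.48 in the CCR2- Control arrays and 6.03, 6.11, 6.73 and 6.37 in the CCR2- RbpjiΔEC arrays. The 2 CCR2- group means, 6.32 and 6.31, lay within the range of the floor. The CCR2+ means, 7.16 in control and 6.92 in RbpjiΔEC mice, were near it, and CCR2+ RbpjiΔEC array 3, at 6.65, lay within it. The difference between labels was 0.84 (SE 0.159) in control and 0.61 in RbpjiΔEC mice, where the highest CCR2- array passed the lowest CCR2+ array. Without CCR2+ RbpjiΔEC arrays 1 and 2 the latter was 0.39.

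F7 encodes factor VII, the protease that tissue factor activates. Its levels were 10.85, 10.36, 10.89 and 11.04 in CCR2+ Control, 11.42, 10.66, 10.50 and 10.25 in CCR2+ RbpjiΔEC, 6.999, 6.59, 6.68 and 6.76 in CCR2- Control and 6.98, 6.54, 6.63 and 6.54 in CCR2- RbpjiΔEC arrays. Every CCR2- array was at or just above the floor, and no CCR2+ array came near it. The difference was 4.03 (SE 0.207) in control and 4.04 in RbpjiΔEC mice.

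F10 encodes factor X, which makes thrombin once activated. It read 12.62, 12.30, 12.62 and 12.65 in CCR2+ Control arrays, 12.37, 12.42, 12.23 and 12.10 in CCR2+ RbpjiΔEC arrays, 7.66, 6.71, 7.05 and 7.60 in CCR2- Control arrays and 6.79, 7.13, 7.04 and 6.81 in CCR2- RbpjiΔEC arrays. The labels were far apart, by 5.29 (SE 0.174) in control and 5.34 in RbpjiΔEC mice. The CCR2- Control arrays 1 and 4 stood above the other CCR2- arrays. The other F10 probe sets gave smaller differences, 4.18 and 3.51 in control mice and 4.14 and 3.49 in RbpjiΔEC mice.

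F5 encodes factor V, the cofactor of factor X. It had the largest difference of the 10 genes. Levels were 12.85, 12.96, 12.98 and 12.77 in CCR2+ Control, 13.06, 12.85, 12.97 and 12.96 in CCR2+ RbpjiΔEC, 6.61, 6.93, 6.42 and 7.44 in CCR2- Control and 6.59, 6.97, 6.77 and 7.11 in CCR2- RbpjiΔEC arrays. The 8 CCR2+ arrays lay within 12.77 to 13.06, while the CCR2- arrays spread from the floor to 7.44. The difference was 6.04 (SE 0.169) in control and 6.10 in RbpjiΔEC mice, and 5.52 and 5.60 by the other F5 probe set.

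F13a1 encodes the catalytic subunit of factor XIII and is also made by monocytes and platelets. It was the most variable of the 10 genes, with 8.81, 8.46, 8.40 and 9.21 in CCR2+ Control, 10.22, 11.74, 8.11 and 8.39 in CCR2+ RbpjiΔEC, 9.27, 7.06, 6.94 and 7.58 in CCR2- Control and 6.90, 7.74, 6.84 and 6.79 in CCR2- RbpjiΔEC arrays. CCR2+ RbpjiΔEC arrays 1 and 2 stood far above the other 2 of their group, and CCR2- Control array 1 was above every CCR2+ Control array. The difference between labels was 1.01 (SE 0.646) in control and 2.55 (SE 0.646) in RbpjiΔEC mice. It was 1.53 in control mice without CCR2- Control array 1, and 1.18 in RbpjiΔEC mice without CCR2+ RbpjiΔEC arrays 1 and 2. The summed intensity of the 8 markers of monocytes and small peritoneal macrophages was highest of the CCR2- arrays in CCR2- Control array 1, at 31213 against 18072 to 23533 in the other 7. Over the CCR2+ arrays it was highest in CCR2+ RbpjiΔEC array 2, at 11058, and lowest in CCR2+ RbpjiΔEC array 1, at 5972. The part of these cells in the F13a1 values was not tested.

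Thbd encodes thrombomodulin, the receptor that turns thrombin into an activator of protein C. It read 11.31, 10.86, 10.91 and 10.30 in CCR2+ Control, 10.74, 11.24, 11.03 and 11.03 in CCR2+ RbpjiΔEC, 6.72, 7.11, 6.71 and 6.71 in CCR2- Control and 6.60, 6.98, 6.95 and 6.87 in CCR2- RbpjiΔEC arrays. The CCR2+ arrays were all above 10, and the CCR2- arrays were near the floor. The difference was 4.03 (SE 0.175) in control and 4.16 in RbpjiΔEC mice.

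Pros1 encodes protein S, the cofactor of activated protein C, and is also a ligand of the TAM receptor tyrosine kinases. It read 12.60, 12.70, 12.61 and 12.61 in CCR2+ Control, 12.48, 12.68, 12.63 and 12.61 in CCR2+ RbpjiΔEC, 8.86, 7.84, 8.19 and 8.06 in CCR2- Control and 7.78, 7.89, 8.16 and 8.35 in CCR2- RbpjiΔEC arrays. The CCR2+ arrays lay close together, within 12.48 to 12.70, and all CCR2- arrays stood above the floor. The labels differed by 4.40 (SE 0.170, 21.0-fold) in control and 4.56 (23.5-fold) in RbpjiΔEC mice.

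Tfpi encodes tissue factor pathway inhibitor, which blocks the tissue factor complex and activated factor X. It read 9.28, 9.61, 9.27 and 9.64 in CCR2+ Control, 9.03, 9.68, 9.40 and 9.79 in CCR2+ RbpjiΔEC, 7.09, 7.01, 6.39 and 7.17 in CCR2- Control and 6.89, 7.03, 7.11 and 7.11 in CCR2- RbpjiΔEC arrays. No array of one label reached the other. The difference was 2.54 (SE 0.176) in control and 2.44 in RbpjiΔEC mice, and over all 4 probe sets it ran from 1.87 to 2.70 and from 2.17 to 2.72.

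Plau encodes urokinase, which activates plasminogen. It read 7.82, 7.97, 7.92 and 7.61 in CCR2+ Control, 7.76, 8.35, 7.01 and 7.96 in CCR2+ RbpjiΔEC, 7.22, 6.74, 6.84 and 6.55 in CCR2- Control and 6.70, 6.64, 7.05 and 7.09 in CCR2- RbpjiΔEC arrays. CCR2+ RbpjiΔEC array 3, at 7.01, lay within the range of the CCR2- arrays. The labels differed by 0.99 (SE 0.220) in control and 0.90 in RbpjiΔEC mice. The other Plau probe set had group means no higher than the floor in all 4 groups and gave 0.33 and 0.26.

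Plaur encodes the urokinase receptor. It read 11.53, 10.89, 11.57 and 11.34 in CCR2+ Control, 11.42, 11.32, 11.23 and 11.25 in CCR2+ RbpjiΔEC, 10.29, 10.22, 9.95 and 10.02 in CCR2- Control and 10.29, 10.25, 9.82 and 9.77 in CCR2- RbpjiΔEC arrays. It was well above the floor on all 16 arrays, and the labels differed by 1.21 (SE 0.151) in control and 1.27 in RbpjiΔEC mice without overlap.

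**Figure D2:**
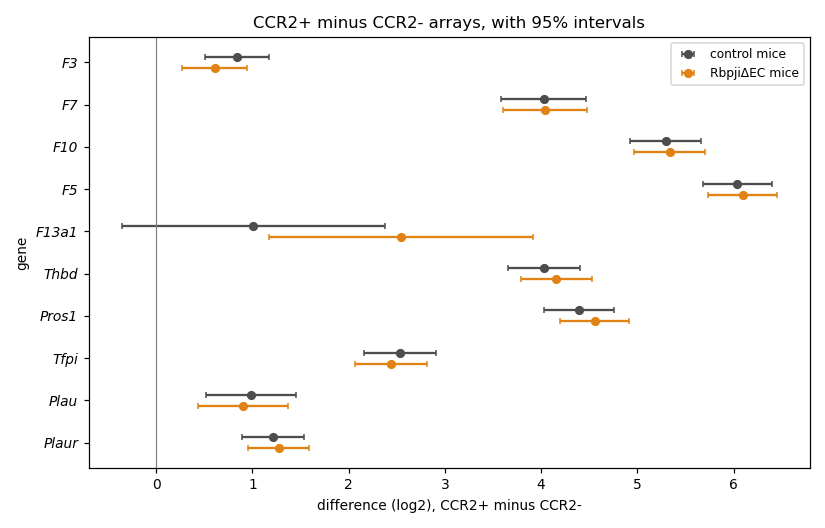
Difference between labels (CCR2+ minus CCR2-, log2) for each gene in control and in RbpjiΔEC mice; bars are 95% intervals from the limma SE. F5, F10, Pros1, Thbd and F7 differed by 4.03 to 6.10, Tfpi by 2.44 to 2.54, and F3, Plau and Plaur by 0.61 to 1.27, while F13a1 differed by 1.01 and 2.55.

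The order of the 4 group means followed the label in all 10 genes, both CCR2+ groups above both CCR2- groups. The gap between the labels' nearest group means was 6.03 for F5, 5.03 for F10, 4.36 for Pros1, 3.99 for Thbd, 3.95 for F7 and 2.42 for Tfpi, each larger than the largest group SD of that gene. The gaps of F3 (0.60), Plau (0.90) and Plaur (1.18) also exceeded the largest SD, while for F13a1 the gap of 1.01 was smaller than its largest SD of 1.70. Within a label, the genotypes' means lay 0.01 to 0.31 apart in the other 9 genes. Of these gaps, only that of F10 in the CCR2+ arrays (0.27 against SDs of 0.168 and 0.146) exceeded both SDs of the groups compared.

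Whether loss of Rbpj in the endothelium moved these genes in the sorted cells was tested within each label, and none was called. In the CCR2+ arrays 0 of 10 genes passed a limma adjusted p of 0.05, as did 0% of all genes, and adjusted p ran from 0.966 to 0.989. At an unadjusted p under 0.05 there were 0 of 10 members and 830 of all genes. The median difference, RbpjiΔEC minus control, was −0.03 over the members and −0.01 over all genes. No member had groups without overlap, against 3.39% of all genes.

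In the CCR2+ arrays F13a1 had the largest difference, 0.90 (SE 0.646, 95% interval −0.48 to 2.27, limma p = 0.185, adjusted p = 0.966, exact permutation p = 0.429). It rested on RbpjiΔEC arrays 1 and 2, and without them the difference turned to −0.47. F10 differed by −0.27 (SE 0.174, 95% interval −0.64 to 0.10, limma adjusted p = 0.966, exact permutation p = 0.0857), and 3 of 4 control arrays stood above all 4 RbpjiΔEC arrays. F3 differed by −0.24 (exact permutation p = 0.20) and Thbd by 0.16 (exact permutation p = 0.514). F7, F5, Pros1, Tfpi, Plau and Plaur differed by −0.07 to 0.07. The smallest exact permutation p that 4 against 4 arrays allow is 0.0286.

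In the CCR2- arrays 0 of 10 genes were called, as were 0% of all genes, and the adjusted p was 1 for each. At an unadjusted p under 0.05 there were 0 of 10 members and 390 of all genes. No member had groups without overlap, against 1.56% of all genes. F13a1 differed by −0.64 (SE 0.646, exact permutation p = 0.314), with CCR2- Control array 1 the highest of the 8. F10 differed by −0.31 (SE 0.174, 95% interval −0.68 to 0.06, limma p = 0.0907, exact permutation p = 0.314), with the control arrays 1 and 4 above all RbpjiΔEC arrays. The other 8 genes differed by −0.19 (Pros1) to 0.12 (Tfpi).

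The interaction, the genotype difference in CCR2- arrays minus that in CCR2+ arrays, was called for 0 of 10 members and 0% of all genes (limma adjusted p = 0.999 for each member). At an unadjusted p under 0.05 there were 0 of 10 members and 555 of all genes. It was −1.54 (SE 0.914, 95% interval −3.48 to 0.40) for F13a1 and −0.16 to 0.23 for the others. The unadjusted 95% interval of a genotype difference reached a median of 0.37 to either side over the 10 genes, and further for F13a1. Changes much smaller than this median were not detectable here. Larger ones may also go uncalled, because calls were adjusted over all genes. Rbpj itself, which is not deleted in macrophages by the labelled design, differed between genotypes by 0.07 in CCR2+ and −0.09 in CCR2- arrays (limma adjusted p = 0.982 and 1).

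**Figure D3:**
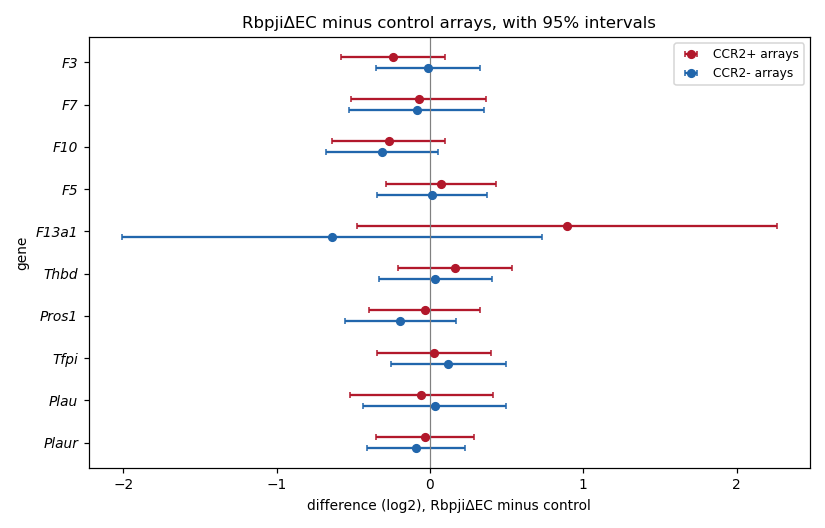
Difference between genotypes (RbpjiΔEC minus control, log2) for each gene in CCR2+ and in CCR2- arrays, with 95% intervals from the limma SE. Every interval includes 0, and those of F13a1 are the widest.

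Beyond the 10 genes, 42 of 46 other genes of the pathway were measured. In control mice 8 of the 42 were called higher and 2 lower in the CCR2+ arrays, against 19.4% and 21.4% of all genes. In RbpjiΔEC mice 5 were called higher and 5 lower, against 18.1% and 21% of all genes. In control mice the share called higher was thus near that of all genes. The split depended on the scaling: it was 9 higher and 5 lower in control and 6 and 7 in RbpjiΔEC mice under median centring, and 10 and 0 and 12 and 0 with no further normalization. Without CCR2+ RbpjiΔEC array 1 it was 6 higher and 1 lower in RbpjiΔEC mice. The median difference over the 42 was 0.09 in control and −0.01 in RbpjiΔEC mice.

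Of 12 other factors of the cascade, 0 were called in control mice and 1 was called lower in RbpjiΔEC mice. That was F9, factor IX, at −0.41 (SE 0.136, limma adjusted p = 0.0235), near the floor in both groups. The call was lost in 5 of 18 alternative settings, among them without CCR2+ RbpjiΔEC array 1 or 4 and without CCR2- RbpjiΔEC array 3 or 4, with differences of −0.60 to −0.31 over all settings. F8, F11, F13b and Fga had group means no higher than the floor in all 4 groups. F2, the thrombin precursor, read 6.80 and 6.94 in the CCR2+ and CCR2- Control arrays, near the floor. The 12 differences ran from −0.35 (F9) to 0.27 (Klkb1, plasma kallikrein) in control mice.

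Of 11 anticoagulants, 2 were called higher and 1 lower in control mice. Procr, the endothelial protein C receptor that works with thrombomodulin, was higher by 0.68 (SE 0.180, limma adjusted p = 0.00586), with 8.27, 7.66, 7.52 and 8.19 in CCR2+ and 7.07, 7.24, 7.47 and 7.14 in CCR2- Control arrays. Serping1, which inhibits the contact and complement proteases, was higher by 0.66 (limma adjusted p = 0.00341). Serpind1, heparin cofactor II, was lower, at −0.58 (limma adjusted p = 0.0294) in control and −0.61 (limma adjusted p = 0.0226) in RbpjiΔEC mice, calls lost in 9 and 6 of 19 settings. In control mice these included leaving out CCR2+ array 1 or 4 or CCR2- array 1 or 3, and in RbpjiΔEC mice array 1 or 2 of either label. Over all settings its difference was −0.73 to −0.13 and −0.70 to −0.24. In RbpjiΔEC mice 0 were called higher and 2 lower, Serpind1 and Serpinc1, which encodes antithrombin, at −0.66 (limma adjusted p = 0.00367), a call lost with no further normalization.

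Of 10 genes of the plasminogen system, 3 were called higher and 1 lower in control mice and 2 higher and 2 lower in RbpjiΔEC mice. Serpinb2 and Lrp1 had the largest differences in both genotypes. Serpinb2 encodes plasminogen activator inhibitor 2, which blocks urokinase. It read 12.15, 12.54, 12.73 and 12.33 in CCR2+ and 6.31, 6.23, 6.11 and 6.82 in CCR2- Control arrays, a difference of 6.07 (SE 0.168, limma adjusted p = 3.71e-14), and 6.20 in RbpjiΔEC mice (limma adjusted p = 2.77e-14). Its CCR2- levels were at the floor, so the difference is understated. Lrp1, an endocytic receptor that clears complexes of urokinase and its inhibitors, was higher by 4.18 (SE 0.186, limma adjusted p = 1.47e-11) in control and 4.00 (limma adjusted p = 2.37e-11) in RbpjiΔEC mice; its other probe set gave 2.73 and 3.12. Serpinf2, antiplasmin, was higher by 0.42 in control mice (limma adjusted p = 0.0111), a call lost under median centring and without further normalization. Called lower were Plgrkt, a plasminogen receptor, by −0.36 and −0.37 in control and RbpjiΔEC mice (limma adjusted p = 0.0495 and 0.0438), and S100a10, which also binds plasminogen, by −0.52 in RbpjiΔEC mice (limma adjusted p = 0.0149). The sign of both flipped with no further normalization, Plgrkt to 0.09 and 0.20 and S100a10 to 0.13. The Plgrkt call was lost in 11 of 19 settings in either genotype, in control mice without array 1, 3 or 4 of CCR2+ or 1, 2 or 4 of CCR2-, and in RbpjiΔEC mice without array 1 or 2 of CCR2+ or 2, 3 or 4 of CCR2-. That of S100a10 was lost in 4 of 19, among them without CCR2+ array 1 or CCR2- array 2. The other 2 probe sets of S100a10 disagreed, at −1.05 and 0.13 in control and −0.86 and −0.03 in RbpjiΔEC mice.

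Of 3 thrombin receptor genes none was called in either genotype. Of 6 genes for carboxylation and secretion of clotting factors, the same 3 were called higher in control and in RbpjiΔEC mice. Vkorc1, the enzyme that recycles vitamin K for the carboxylation of factors VII and X and protein S, was higher by 1.28 (SE 0.110, limma adjusted p = 6.21e-08) and 1.31 (limma adjusted p = 4.48e-08). Lman1 and Mcfd2, which form the receptor that carries factor V out of the endoplasmic reticulum, were higher by 1.00 (SE 0.217, limma adjusted p = 0.00126) and 1.18 (SE 0.0859, limma adjusted p = 8.02e-09) in control and by 1.15 and 1.14 in RbpjiΔEC mice (limma adjusted p = 0.00039 and 1.15e-08). All 3 kept their calls under the alternative fits, at up to 1.56 for Lman1 in control mice and up to 1.98 for Vkorc1, 1.82 for Lman1 and 1.81 for Mcfd2 in RbpjiΔEC mice. The 5 Lman1 probe sets disagreed, with 1 not called in either genotype, at −0.00 in control and 0.52 in RbpjiΔEC mice, and the other 4 at 1.00 to 1.94 in control mice. Ggcx, the carboxylase itself, differed by 0.14 and 0.18 and was not called.

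Between genotypes 0 of the 42 genes were called in either label. At an unadjusted p under 0.05 there were 3 of the 42 among CCR2+ arrays, against 830 of all 18194 genes. Among CCR2- arrays there were 0, against 390 of all genes. The smallest p in the CCR2+ arrays was that of Procr, at −0.45 (limma adjusted p = 0.966). The others were Plat, of the plasminogen system, at −0.41, and Serping1 at −0.35 (limma adjusted p = 0.966 for each). The groups of Plat did not overlap, as was the case for 3.39% of all genes.

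**Figure D4:**
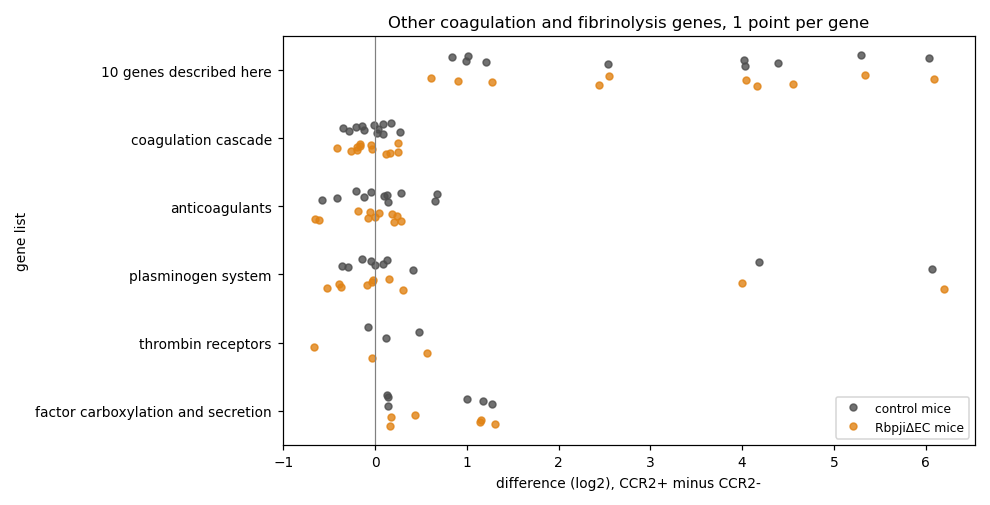
Difference between labels (CCR2+ minus CCR2-, log2), 1 point per gene, for the 10 genes and for the 5 lists of other pathway genes, in control and RbpjiΔEC mice. Outside the 10 genes, Serpinb2 and Lrp1 stand at 4.00 to 6.20 and Vkorc1, Mcfd2 and Lman1 at 1.00 to 1.31.

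Markers of other cells that make clotting factors were read beside these values. Of 13 platelet and megakaryocyte markers, 6 were called higher and 1 lower in control mice (4 and 1 in RbpjiΔEC mice). Beside this and the other marker lists, 19.4% of all genes were called higher and 21.4% lower in control mice. In RbpjiΔEC mice these shares were 18.1% and 21%. The summed intensity of the 13 markers was 8126 to 9757 over the CCR2+ arrays and 1804 to 2179 over the CCR2- arrays. A sum of linear intensities weighs the highest markers most. The median difference over the 13 markers was 0.13 in control and 0.14 in RbpjiΔEC mice. The highest in the CCR2+ arrays was Pf4, platelet factor 4, which differed by 5.10 in control mice, and the highest in the CCR2- arrays was Gp9, while Ppbp, Gp5 and Tubb1 had group means no higher than the floor in all 4 groups. Of 11 endothelial markers, 0 were called higher and 1 lower in control mice (0 and 2 in RbpjiΔEC mice), and Cdh5 and Emcn were no higher than the floor in all groups. Their sum was 1561 to 1889 over the CCR2+ arrays and 4118 to 5098 over the CCR2- arrays, where the highest was Pecam1. Pecam1 differed by −4.05 in control and −4.10 in RbpjiΔEC mice, while the median over the 11 was −0.19 and −0.05. Of 4 hepatocyte markers none was called, and sums were 684 to 856 and 689 to 927. The part of platelets in the values of F5, F13a1, Pros1 and Tfpi was not tested.

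The genes nearest to each member were found by the root mean square difference over the 16 arrays, after each gene's own mean was subtracted. Spreads were not scaled, so the value depends on the size of the differences as well as on their pattern. Genes that vary little lie close to each other whatever their pattern. Nearest to F5 were Serpinb2 (0.171), Vsig4 (0.181) and Fabp4 (0.239), of which the last 2 are among the 12 large peritoneal macrophage markers. Nearest to F10 were Cd5l (0.251), Fcna (0.252) and Pf4 (0.256), and to F7 Jam2 (0.208), Nfe2 and Mtus1. Thbd was nearest to Abcd2 (0.216), Pros1 to Hacd4 (0.122), Tfpi to Ocln (0.219), F3 to Brpf1 (0.161), Plau to Gng7 (0.231) and Plaur to Znfx1 (0.156). No member was among the 3 nearest genes of another. The smallest value between members was that of F3 and Plau (0.348), which both differed little between labels. Thbd and Pros1, which differed by 4.03 to 4.56, came next at 0.397. F13a1, the most variable member, had its nearest genes further off: Cd163, a scavenger receptor, was at 0.672 and Cbr2 at 0.674. Cd163 read 9.54, 9.33, 7.87 and 8.11 in the CCR2+ RbpjiΔEC and 9.03, 7.05, 6.98 and 6.95 in the CCR2- Control arrays. Like F13a1, it was high in CCR2+ RbpjiΔEC arrays 1 and 2 and CCR2- Control array 1. Because Cd163 was picked for its likeness to F13a1 on these same arrays, this follows from the choice and shows nothing further.

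Members were also read beside their neighbours on the chromosome, in the order RefSeq gives. F7 and F10 are adjacent on chromosome 8, and both were far higher in the CCR2+ arrays, while the genes on either side differed far less. Mcf2l differed by 0.45 in control and 0.48 in RbpjiΔEC mice and was called in both (limma adjusted p = 0.00146 and 0.000817). Proz, which encodes the anticoagulant protein Z, differed by 0.13 and 0.24 and Pcid2 by 0.10 and 0.05, and neither was called. Next to F5 on chromosome 1 lies Selp, the adhesion receptor P-selectin, one of the 12 large peritoneal macrophage markers, which differed by 5.72 and 5.73. On its other side Slc19a2 differed by 0.55 and 0.43. Next to Thbd on chromosome 2, Cd93, a membrane protein of the same lectin-like family as thrombomodulin, differed by 4.73 and 5.24. Sstr4 differed by 2.15 and 2.43, while Foxa2 and Nxt1 differed by 0.03 and −0.40 in control mice. The remaining members showed no common pattern. Near F3, Arhgap29 differed by 3.9 and 4.2 and Abcd3 by 1.2 and 0.97, both more than F3 itself. Slc44a3 differed by −0.81 and −0.89. Next to Tfpi, Ctnnd1 differed by 2.91 and 3.17 and Calcrl by 1.09 and 1.31. Near Plau, Ndst2 differed by 1.645 and 1.37, Vcl by 0.82 and 0.96 and Ap3m1 by 0.67 and 0.65. Next to Pros1, Stx19 differed by −0.72 and −0.52 and Epha3 by 0.10 and 0.14. No measured neighbour of F13a1 or Plaur was called. Of all genes, 19.4% were called higher and 21.4% lower in control mice, and 18.1% and 21% in RbpjiΔEC mice.

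**Figure D5:**
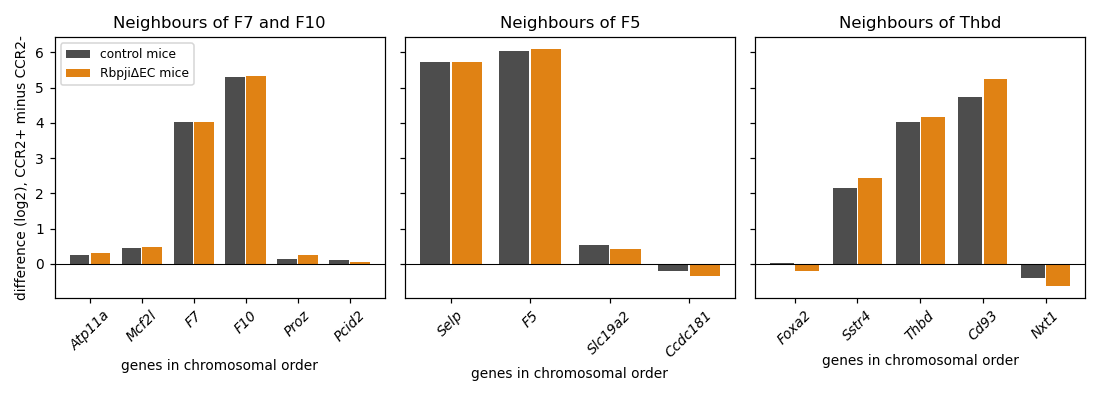
Difference between labels (CCR2+ minus CCR2-, log2) of F7 and F10, F5 and Thbd and of their nearest measured neighbours in chromosomal order, as bars for control and RbpjiΔEC mice. F7 and F10 stand between genes that differ by less than 0.5, F5 beside Selp at 5.72, and Thbd beside Cd93 at 4.73 in control mice.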

How the data were processed

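RNA was measured on 16 Affymetrix mouse arrays of 45101 probe sets, 4 per group; the labels gave the groups. The authors deposited 1 table of linear intensities, found linear from its values. Its normalization, not given in the sources used here, is unknown, and no detection calls or scan dates were used. Probe sets with 1 gene symbol (34958) were kept, 932 with several and 9211 not listed were left out, and the probe set with the highest mean stood for each of 18194 genes. The deposited intensities were transformed to log2 and quantile normalized over the 16 arrays, without a filter. Group means were fitted with limma 3.58.1 in R 4.3.3, in two-sided tests, p adjusted by Benjamini-Hochberg over every gene, and called under 0.05; exact permutation tests stand beside single values. A number of arrays this small limits the precision. Scripts were checked on simulated data.

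The members and lists were chosen with earlier results of these data known. Named are all members; of each pathway list, up to 3 called genes per direction with the largest differences, or the smallest p between genotypes; the 3 most similar genes of each member, of which part is printed; and the highest and floor-level markers. F2, F8, F11, F13b, Fga, Klkb1, Ggcx, Plat and the neighbours were named, and the motifs searched, after values were seen. Listed pathway genes beyond the 42 measured were not analysed here. Of the marker lists not mentioned in the report, 0 of 7 neutrophil markers, 0 of 7 mesothelial, 1 of 6 T and NK cell (lower) and 1 of 9 epithelial (higher, with 3 lower) were called in control mice, and 0, 3 (lower), 2 (lower) and 1 (higher, with 4 lower) in RbpjiΔEC mice; 6 and 4 of 8 markers of monocytes and small peritoneal macrophages were called lower. Alternatives were median centring, no further normalization, the mean of or each probe set, leaving out the dimmest genes, trend and robust eBayes, array weights, only the groups compared, normalization within a label, replicate blocks and leaving out each array; leaving out 2 pairs of arrays was added after the data were seen.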

Additional observations from a re-analysis of the deposited data

Results flagged for a closer look

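In 4 of the 40 sets of 4 arrays formed by the 10 genes and 4 groups, 1 array lay far from the others relative to the range of its set. Chance gives about 1 in 20 such sets. The gap itself can be small where the set is tight. F10 read 12.3 in CCR2+ Control array 2, below the other 3, of which the nearest was 12.62. Pros1 read 12.7 in the same array, above the other 3, with the nearest at 12.61, a small gap in a group with an SD of 0.0465. F13a1 read 7.74 in CCR2- RbpjiΔEC array 2, above the other 3, with the nearest at 6.90. Thbd read 7.11 in CCR2- Control array 2, above the other 3, with the nearest at 6.72. The summed intensity of 7 neutrophil markers was also highest of its group in both of these Control arrays, at 3114 in CCR2+ Control array 2 (1034 to 1234 in the other 3) and 6333 in CCR2- Control array 2 (846 to 2304 in the other 3); its part in these values was not tested.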

How the results depend on the processing

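All 10 members kept a positive difference between labels under every alternative run. Of the named pathway genes, Plgrkt turned to 0.032 in control mice under median centring and, with no further normalization, to 0.087 in control and 0.20 in RbpjiΔEC mice, and S100a10 to 0.13 in RbpjiΔEC mice. The other pathway genes named for a called difference kept their direction under the alternative fits, though single probe sets of Lman1 and S100a10 differed in sign in control mice, at −0.0036 and 0.13. The median over members in RbpjiΔEC mice, 3.29, was 3.65 with no further normalization, which moved the median of all genes there to 0.23, and in the CCR2- genotype comparison to −0.16. With the dimmest genes left out (12129 genes kept) it was 4.10, and in control mice 4.03, because F3 and Plau fell out and 8 members were left. Leaving out each array in turn gave 3.18 to 3.31 in control and 3.20 to 3.58 in RbpjiΔEC mice, the last without CCR2+ RbpjiΔEC array 3. Of the summary values, 173 others moved by less than the member SD or, for counts, by less than 1.5 times. Over 624 member values of the genotype comparisons and the interaction, 0 were called and the smallest adjusted p was 0.492. The number of pathway genes called between labels was 9 to 14 in control and 7 to 14 in RbpjiΔEC mice.

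With the replicate number as a block, the members' medians stayed at 3.28 and 3.29, 0 members and 0 pathway genes were called between genotypes, and 9 and 12 pathway genes were called between labels. With genotype and number together as the block, these were 12 and 11. Between the labels of a genotype, the deviations of same-numbered arrays correlated at −0.03 to 0.40 in control and 0.04 to 0.24 in RbpjiΔEC mice. In each, 3 of 4 arrays correlated best with their own number. Between groups that differ in both label and genotype, which cannot share an animal, 2 of 4 did so. This is at most a weak hint from the data, and the labels do not state a pairing. The block changed no call among the members.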
